A study of Homo sapiens with 16 samples.

Results

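The genes described here are 8 measured genes of p53 signalling, of 17329 genes with a measured spot, in U937 cells exposed to the cardiac glycoside UNBS1450. They are MDM2, CCNG1, the long non-coding RNA PURPL, CDKN1A, GADD45A, RRM2B, TP53INP1 and GDF15. They were taken by gene symbol with every spot of each gene, which gave 27 of the 28970 spots that carry a single gene. A ninth gene, BTG2, was matched to no spot in the annotation used here and was not analysed here. The genes were chosen by name with the 9 h log2 ratios and calls of these same arrays in view, so their values at 9 h are a description and not an independent test.

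U937 is an established human histiocytic lymphoma line, and all samples are of this 1 line. Cells treated with 20 nM UNBS1450, a cardenolide that blocks the Na+/K+-ATPase of the plasma membrane, were set against control cells of the same time point on 16 Agilent whole-genome arrays of 2 colours, with 4 biological replicates at each of 0, 3, 6 and 9 h. The methods of the study give no treatment at 0 h, where the labels name the agent, so the 0 h arrays are used as the comparison of cells before exposure. The treated sample was in the Cy5 channel for replicates 1 and 2 and in the Cy3 channel for replicates 3 and 4, so an effect of the dye and a difference between these pairs of cultures cannot be told apart. Every value is a log2 ratio of UNBS1450 over control, where 0 is no difference, and a gene is called when it differs by 1.3-fold or more with an adjusted p under 0.05. Across spots, these ratios correlated at −0.27 to 0.16 (Pearson r) between arrays of the same time in opposite dye orientations. In the same orientation they correlated at 0.049 to 0.61. Each mean of 4 arrays therefore joins pairs whose profiles across spots were little alike. Where a gene has several spots, its chosen spot is that of highest F over the treated times. Ratios give no level within a sample, so the identity of the line could not be checked against marker genes. In bulk RNA, fewer cells that express a gene and less of its RNA per cell cannot be told apart.

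p53 is a transcription factor that accumulates after DNA damage and other stress, binds DNA at paired half-sites, and switches on genes that halt the cell cycle, repair DNA or start cell death. Several of its targets act back on it. MDM2 encodes the ubiquitin ligase that marks p53 for destruction, CCNG1 encodes cyclin G1, which works with protein phosphatase 2A to activate MDM2, and PURPL is a p53-induced RNA reported to keep basal p53 low.

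The promoters of PURPL, CCNG1 and MDM2 are shown because PURPL and CCNG1 were the called genes and MDM2 holds the classic p53 site in a second promoter. Each is a RefSeq window of GRCh38.p14 from 250 bases before to 50 bases after the start, 5′ to 3′ on the plus strand, at chr5:27472042-27472341 for PURPL, chr12:68808767-68809066 for the later MDM2 start and chr5:163437321-163437620 for CCNG1. Capitals mark a pair of p53 half-sites with up to 2 mismatches and no gap between them.
PURPL: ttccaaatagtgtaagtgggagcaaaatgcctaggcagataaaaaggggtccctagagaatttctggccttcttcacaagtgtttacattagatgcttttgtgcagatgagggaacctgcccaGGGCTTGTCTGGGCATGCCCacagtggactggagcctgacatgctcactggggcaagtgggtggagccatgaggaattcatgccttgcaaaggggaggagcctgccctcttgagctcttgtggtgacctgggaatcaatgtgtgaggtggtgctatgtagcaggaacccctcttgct
MDM2: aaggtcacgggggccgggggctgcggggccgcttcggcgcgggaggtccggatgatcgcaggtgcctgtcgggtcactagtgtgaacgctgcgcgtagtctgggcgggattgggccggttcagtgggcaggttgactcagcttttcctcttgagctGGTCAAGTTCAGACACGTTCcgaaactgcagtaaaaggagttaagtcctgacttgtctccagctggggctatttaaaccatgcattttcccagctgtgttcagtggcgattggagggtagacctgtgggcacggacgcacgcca
CCNG1: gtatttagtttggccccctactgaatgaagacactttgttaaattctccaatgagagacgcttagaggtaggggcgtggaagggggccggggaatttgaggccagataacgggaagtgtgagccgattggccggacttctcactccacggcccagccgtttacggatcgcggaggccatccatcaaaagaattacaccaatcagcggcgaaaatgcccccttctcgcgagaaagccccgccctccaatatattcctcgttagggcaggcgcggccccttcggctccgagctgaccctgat
The p53 half-site consensus, 10 letters that read the same on both strands, was searched in all 35116 promoter windows. A half-site without mismatch stood in 6.63% of them, and a pair side by side without mismatch in 6 windows, which is 0.0171%. PURPL was one of these 6, with the pair at chr5:27472165-27472184, and the only one of the 6 genes with a measured spot. The MDM2 pair at chr12:68808923-68808942 had 2 mismatches, and 0.649% of all windows held a pair with up to 2. Neither CCNG1 window held a half-site or a pair. Of the 9 genes 6 have a window among those searched. The windows of CDKN1A, GDF15 and BTG2 held no half-site without mismatch and no pair with up to 2. A match is a match of letters and not a bound site, and p53 sites farther from the start lie outside these windows. Pairs with a gap or with more than 2 mismatches were not counted, so a site of that kind may lie within them.

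At 9 h PURPL was lower and CCNG1 was higher in UNBS1450-treated cells, and the other 6 genes did not pass the test. Across the arrays 65 genes were called higher at 9 h, which is 0.375% of those tested, and 65 were called lower, again 0.375%. At 0, 3 and 6 h no gene of the group was called, and neither was any other gene, a background of 0%. With the same fold and an unadjusted p under 0.05, the chosen spots gave 100, 57, 126 and 855 genes at 0, 3, 6 and 9 h. Of these only PURPL and CCNG1 at 9 h belong to the group. Another spot of CDKN1A passed at 0 h, at −0.4 (unadjusted p of 0.0149 in limma), with 1 array at −1.28. The 8 genes had a median of 0.013, −0.063, 0.095 and 0.073 at the times 0, 3, 6 and 9 h, against −0.0028, −0.0027, −0.0051 and 0.0023 over all genes.

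**Figure D1:**
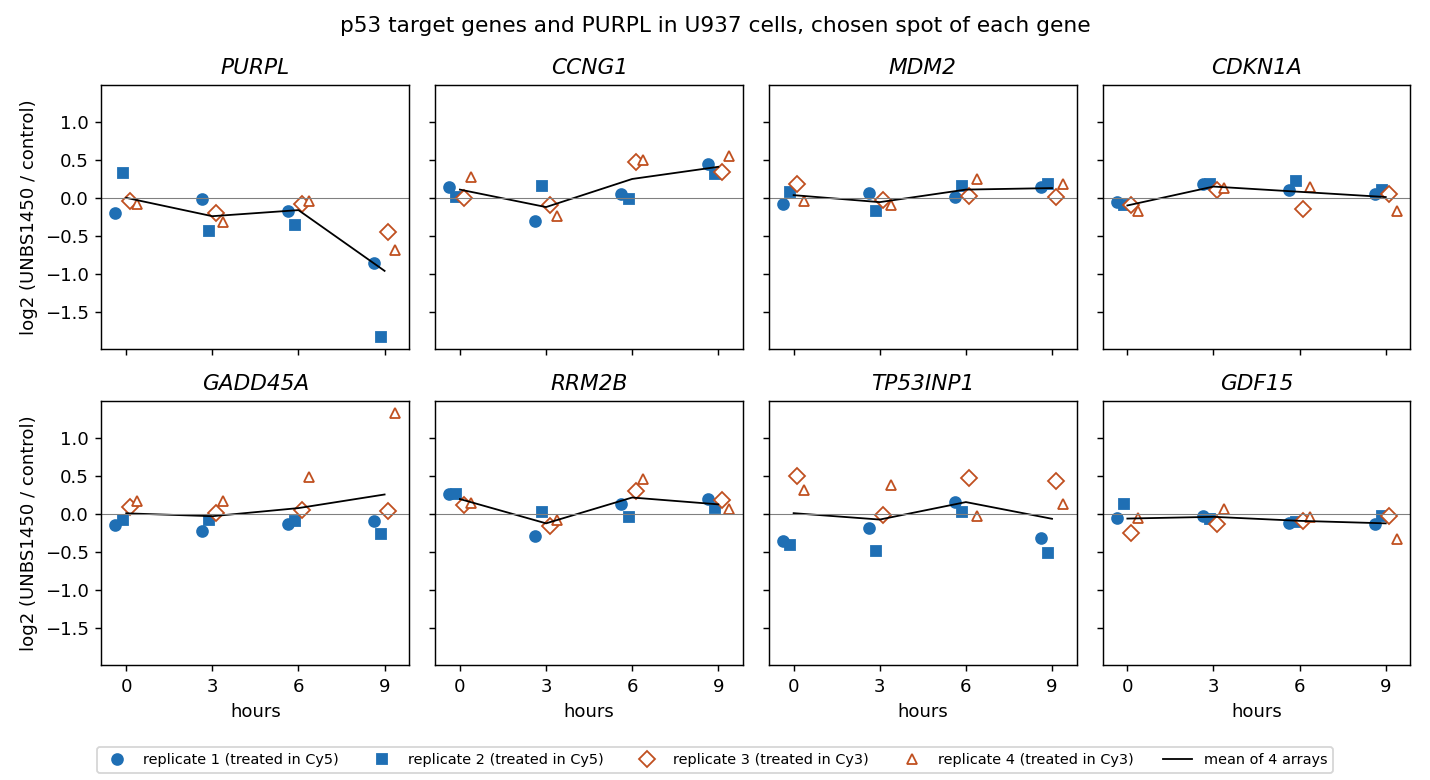
Log2 ratio of UNBS1450 over control (vertical axis) against hours (horizontal axis) for the chosen spot of each of the 8 genes, with a point per array, filled for treated RNA in Cy5 and open for treated RNA in Cy3, and a line through the means of 4 arrays. The 9 h arrays of PURPL lie between −1.83 and −0.45, narrowly below its lowest earlier array of −0.44. Those of CCNG1 lie between 0.31 and 0.55.

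PURPL, measured by 1 spot, had log2 ratios of −0.2, 0.33, −0.044 and −0.075 in replicates 1 to 4 at 0 h. The 3 h arrays gave −0.02, −0.44, −0.2 and −0.31, and the 6 h arrays −0.17, −0.36, −0.082 and −0.04. The 9 h arrays gave −0.86, −1.83, −0.45 and −0.69. All arrays from 3 h on lay below 0. With each time taken singly, so did those of 8.33% (3 h), 11.1% (6 h) and 12.9% (9 h) of all genes. The 9 h arrays lay below every array of the other times, but narrowly, with −0.45 as their highest and −0.44 as the lowest before. The share of all genes with such a separation was not counted. The mean at 9 h was −0.96 ± 0.6 (SD, n = 4), a fold of 0.516 with a 95% interval of −1.29 to −0.62 on the log2 scale and an adjusted p of 0.0375 in limma. Among the 17329 genes this was rank 10 from the lowest. The 0, 3 and 6 h means were 0.0018 ± 0.23, −0.24 ± 0.18 and −0.16 ± 0.14, none of them called. Replicate 2 carried the lowest value, and without it the mean at 9 h was −0.67, still called with an adjusted p of 0.0486, in a fit that called 0.0173% of all genes. Without replicates 1, 3 and 4 in turn the means of −0.99, −1.13 and −1.04 were not called, with adjusted p of 0.23, 0.14 and 0.0503.

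The lower PURPL at 9 h was held by both dye orientations but not to the same extent. Its mean was −1.34 over the pair with treated RNA in Cy5 and −0.57 over the pair with treated RNA in Cy3. With a dye coefficient in the limma fit the adjusted p at 9 h was 0.0124, in a fit that called 1.63% of all genes lower. Set against 0 h in the same fit, PURPL at 9 h was lower by a difference of −0.96 with a standard error of 0.22, and the adjusted p of 0.522 did not pass. No gene of 17329 passed for 9 h minus 0 h, a background of 0%. The 9 h arrays lay entirely below the 0 h arrays for 3.13% of genes. The difference from 6 h was −0.79 (adjusted p of 0.999 in limma) and that from 3 h was −0.71 (adjusted p of 0.332).

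CCNG1, also measured by 1 spot, had log2 ratios of 0.15, 0.0087, 0.0042 and 0.27 in replicates 1 to 4 at 0 h. The 3 h arrays gave −0.3, 0.16, −0.095 and −0.24, and the 6 h arrays 0.051, −0.019, 0.47 and 0.5. The 9 h arrays gave 0.45, 0.31, 0.34 and 0.55. The 9 h arrays were close to each other and all above the 0 h arrays, while at 6 h both arrays with treated RNA in Cy3 stood well above both with treated RNA in Cy5. The mean at 9 h was 0.41 ± 0.11 (SD, n = 4), a fold of 1.33 with a 95% interval of 0.22 to 0.61 on the log2 scale and an adjusted p of 0.0492 in limma. Both the fold and the adjusted p were just past the thresholds. CCNG1 stood at rank 305 from the highest. The dye orientations gave similar means at 9 h, 0.38 with treated RNA in Cy5 and 0.44 with treated RNA in Cy3, and with a dye coefficient the adjusted p was 0.0227, where 1.32% of all genes were called higher. It was not called with the replicate number as a random block (adjusted p of 0.0567), with arrays scaled to one spread (0.0889) or with all measured spots tested (0.0576). These settings called 0.756%, 0.444% and 0.375% of all genes in either direction.

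The 0, 3 and 6 h means of CCNG1 were 0.11 ± 0.13, −0.12 ± 0.21 and 0.25 ± 0.27, and none was called. The difference of 9 h minus 0 h was 0.3 with a standard error of 0.13 and an adjusted p of 0.562. That of 9 h minus 3 h was larger, at 0.53, and had an adjusted p of 0.332. For 2.78% of genes the 9 h arrays lay entirely above the 0 h arrays, as they did for CCNG1. The call did not survive leaving out any one replicate, although the value stayed between 0.37 and 0.45. Fewer arrays left few calls anywhere, with 0, 3, 0 and 61 of all genes called at 9 h without replicates 1, 2, 3 and 4.

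MDM2 was measured by 10 spots, 9 of them of the same reference transcript. All 10 read the same RNA on the same arrays, so they are not independent. The chosen spot had log2 ratios of 0.15, 0.19, 0.015 and 0.18 in replicates 1 to 4 at 9 h, against −0.08, 0.076, 0.19 and −0.034 at 0 h. The 9 h and 0 h arrays overlapped, and the mean at 9 h was 0.13 ± 0.081 (SD, n = 4) with a 95% interval of 0.011 to 0.26 and an adjusted p of 0.234 in limma. That spot was the highest of the 10 at 9 h, where 7 spot means were above 0 and 3 below, between −0.42 and 0.13. The mean of the 9 repeat spots was 0.019, 0.1, −0.24 and 0.069 on the arrays of 9 h. Replicate 3 was the lowest and held a single spot with a log2 ratio of −1.82, and the medians over the 9 spots were 0.073, 0.11, −0.057 and 0.087. At 6 h all 10 spot means were above 0, between 0.0075 and 0.13, as they also were at 0 h, between 0.0074 and 0.1. None of the 10 spots was called at any time.

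**Figure D2:**
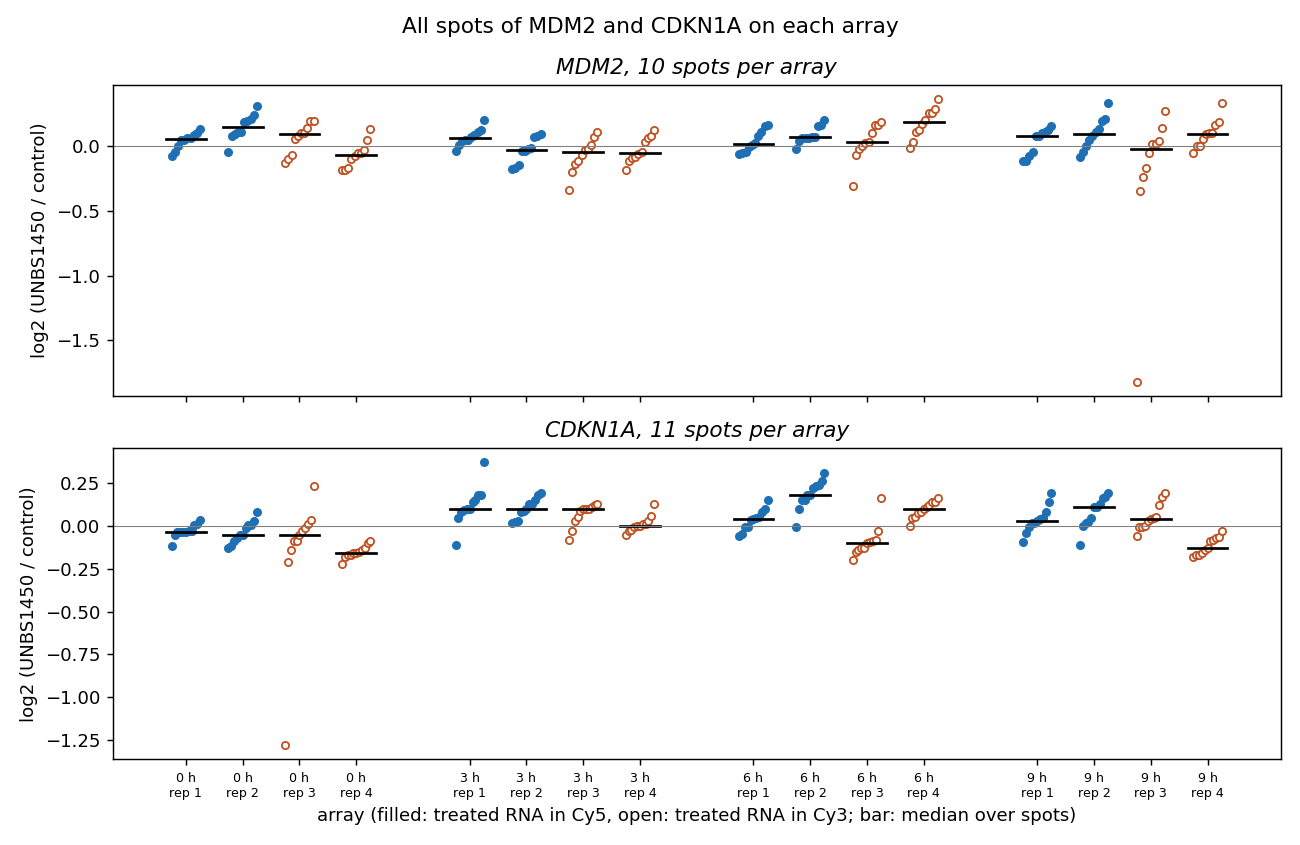
Log2 ratio of UNBS1450 over control (vertical axis) for all 10 spots of MDM2 (upper panel) and all 11 spots of CDKN1A (lower panel) on each of the 16 arrays (horizontal axis), with a point per spot, filled for treated RNA in Cy5 and open for treated RNA in Cy3, and a bar at the median over spots. Most spots lie within a narrow band around 0, apart from single spots at −1.82 for MDM2 and −1.28 for CDKN1A.

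CDKN1A encodes p21, the inhibitor of cyclin-dependent kinases through which p53 holds cells in G1. Its chosen spot had log2 ratios of −0.053, −0.087, −0.087 and −0.17 on the 0 h arrays and of 0.18, 0.19, 0.1 and 0.13 on the 3 h arrays. All arrays were below 0 at 0 h, as for 7.42% of genes, and all were above 0 at 3 h, as for 6.32%. The 3 h arrays lay above the 0 h arrays without overlap, as for 3.26%. The 6 h arrays gave 0.1, 0.22, −0.14 and 0.14, and the 9 h arrays 0.048, 0.11, 0.054 and −0.17, on both sides of 0. The 3 h mean was 0.15 ± 0.042 (SD, n = 4) and the 9 h mean 0.012 ± 0.12, with adjusted p of 1 and 0.952 in limma. The 9 h interval of −0.11 to 0.13 on the log2 scale does not reach the 0.41 measured for CCNG1. The difference of 3 h minus 0 h was 0.25 with a standard error of 0.08, and its adjusted p of 0.655 did not pass. Over all 11 spots 10 means were above 0 at 3 h and all 11 were below 0 at 0 h. The spots read the same RNA on the same arrays, so their signs are not independent. The 10 spots of the main reference transcript averaged −0.097, 0.082, 0.055 and 0.021 over the 0, 3, 6 and 9 h arrays. At 9 h their means lay between −0.028 and 0.078.

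GADD45A encodes a small stress protein that takes part in growth arrest and signals to the p38 and JNK kinases. At 9 h its log2 ratios were −0.086, −0.26, 0.038 and 1.33, against −0.14, −0.077, 0.098 and 0.17 at 0 h. A single array, replicate 4, stood far above the rest, and the mean of 0.26 ± 0.73 (SD, n = 4) became −0.1 without it. The adjusted p was 0.514 in limma. At 6 h the same replicate was again the highest, at 0.49, with the others between −0.13 and 0.058. At every time both arrays with treated RNA in Cy3 lay above both with treated RNA in Cy5. The dye coefficient of its spot, −0.22, was larger in size than that of 93.7% of spots. That coefficient also holds any difference between the pairs of cultures.

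RRM2B encodes p53R2, the small subunit of ribonucleotide reductase that supplies deoxynucleotides for DNA repair outside S phase. The 0 h arrays had log2 ratios of 0.26, 0.27, 0.12 and 0.15, and the 3 h arrays −0.28, 0.026, −0.15 and −0.08. The 6 h arrays had 0.13, −0.034, 0.31 and 0.46, and the 9 h arrays 0.2, 0.079, 0.19 and 0.071. The 4 arrays at 0 h were all above 0, as for 6.14% of genes, and by the methods these cells had no exposure. Those at 9 h overlapped them. The mean was 0.13 ± 0.069 at 9 h and 0.2 ± 0.079 at 0 h (SD, n = 4), and the difference of 9 h minus 0 h was −0.066. The adjusted p was 0.32 at 9 h and 0.873 at 0 h in limma. At 3 h all arrays lay below those of 0 h, as for 2.95% of genes, and the difference of −0.32 had an adjusted p of 0.655.

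TP53INP1 encodes a stress protein that promotes autophagy and the death-inducing phosphorylation of p53. Its log2 ratios at 9 h were −0.31, −0.51, 0.44 and 0.14, against −0.35, −0.41, 0.5 and 0.32 at 0 h. Both arrays with treated RNA in Cy5 were below 0 and both with treated RNA in Cy3 above 0 at each of these times. At 9 h the mean was −0.41 with treated RNA in Cy5 and 0.29 with treated RNA in Cy3, which left −0.06 ± 0.43 (SD, n = 4) and an adjusted p of 0.909 in limma. Its dye coefficient of −0.27, which also holds any difference between the pairs of cultures, was larger in size than that of 97% of spots. The median size over all spots was 0.0572.

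GDF15 encodes a secreted cytokine of the TGF-beta family that many stressed cells release. Its log2 ratios at 9 h were −0.13, −0.029, −0.018 and −0.32, against −0.054, 0.13, −0.25 and −0.055 at 0 h. All 4 arrays at 6 h and at 9 h were below 0, and at both times they overlapped those of 0 h. The mean was −0.12 ± 0.14 (SD, n = 4) at 9 h, with a 95% interval of −0.25 to 0.0048 and an adjusted p of 0.297 in limma.

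The directions of the 8 genes at 9 h were mixed. In the chosen spots all 4 arrays were above 0 for MDM2, CCNG1 and RRM2B, as for 11.8% of all genes. All 4 were below 0 for PURPL and GDF15, as for 12.9%. Over its 10 spots MDM2 had 7 means above 0 and 3 below, with a mean of −0.00046. The signs of the arrays were split for CDKN1A, GADD45A and TP53INP1. By the chosen spot the order of the means at 9 h, from the highest, was CCNG1, GADD45A, RRM2B, MDM2, CDKN1A, TP53INP1, GDF15 and PURPL, with RRM2B and MDM2 equal to 2 digits. The arrays of PURPL and CCNG1 did not overlap with those of each other, and neither did those of GDF15 and PURPL, whereas all other neighbours in this order overlapped.

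A wider list of 50 p53 target genes, of which 47 were measured, held no called gene at 9 h. Of all genes 0.75% were called at that time. Its median was −0.0072, against 0.0023 over all genes, and its values ran from −0.7 for SCO2 to 0.48 for SESN1. Without adjustment 2 passed as higher, SESN1 and PPM1D, and 2 as lower, SCO2 and PLK2, where 4.93% of all genes passed. Each of these 4 lay closer to 0 without replicate 4, at 0.24 for SESN1, 0.21 for PPM1D, −0.31 for SCO2 and −0.22 for PLK2. The smallest p belonged to DRAM1, a lysosomal membrane protein of autophagy, with 0.37, 0.19, 0.2 and 0.23 in replicates 1 to 4. Its mean was 0.25 with an adjusted p of 0.0426 in limma, below the minimum fold, and its 3 spots ran from −0.082 to 0.25. TNFRSF10B, a death receptor for TRAIL, had 0.15, 0.16, 0.34 and 0.5, a mean of 0.29 and an adjusted p of 0.0451, again below the minimum fold, and 0.05 at its other spot. ACER2, a ceramidase of the Golgi, had a mean of 0.27, and CPT1C, a carnitine palmitoyltransferase isoform best known from brain, had −0.34, both with an adjusted p of 0.061.

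Of 21 regulators of p53 on a second list 19 were measured, and none was called at 9 h, where 0.75% of all genes were. Their median was 0.0017 and their range −0.47 to 0.41. The ends of that range were USP7, a deubiquitinase of MDM2 and p53, and CHEK1, a checkpoint kinase that phosphorylates p53. Without replicate 4 USP7 stood at −0.16 and CHEK1 at 0.15, and the other spot of USP7 gave −0.045. DAXX, a partner of MDM2, had a mean of −0.37 at 9 h and of −0.34 at 0 h. MYBBP1A, a nucleolar protein reported to bind PURPL, had log2 ratios of −0.41, −0.31, 0.098 and −0.53 at 9 h, with a mean of −0.29 and an adjusted p of 0.187 in limma.

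Of 12 family relatives of the group, all measured, 1 was called at 9 h and it was higher, where 0.375% of all genes were called higher. This was RRM2, the small subunit of ribonucleotide reductase of dividing cells and the counterpart of RRM2B, with log2 ratios of 0.51, 0.41, 0.32 and 0.96. Its mean was 0.55 ± 0.28 (SD, n = 4) with an adjusted p of 0.0375 in limma, and 0.41 without replicate 4. With any 1 replicate left out RRM2 was not called, and without replicate 4 the 1 relative called was CCNG2, there by its other spot, at 0.51. The other spot of RRM2 gave 0.21. The mean of RRM2 was 0.046 at 0 h and 0.21 at 6 h. CCNG2, the relative of CCNG1, had 0.28, 0.09, 0.27 and 0.94, a mean of 0.39 and an adjusted p of 0.0619, with 0.96 at its other spot and 0.21 without replicate 4. BTG1, an antiproliferative relative of BTG2, had 0.39, 0.11, 0.25 and 1.43, a mean of 0.54 and an adjusted p of 0.101, and 0.25 without replicate 4. CDKN1C, which encodes the p21 relative p57, had −0.27 with an adjusted p of 0.061. The list had a median of 0.11, against 0.0023 over all genes.

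**Figure D3:**
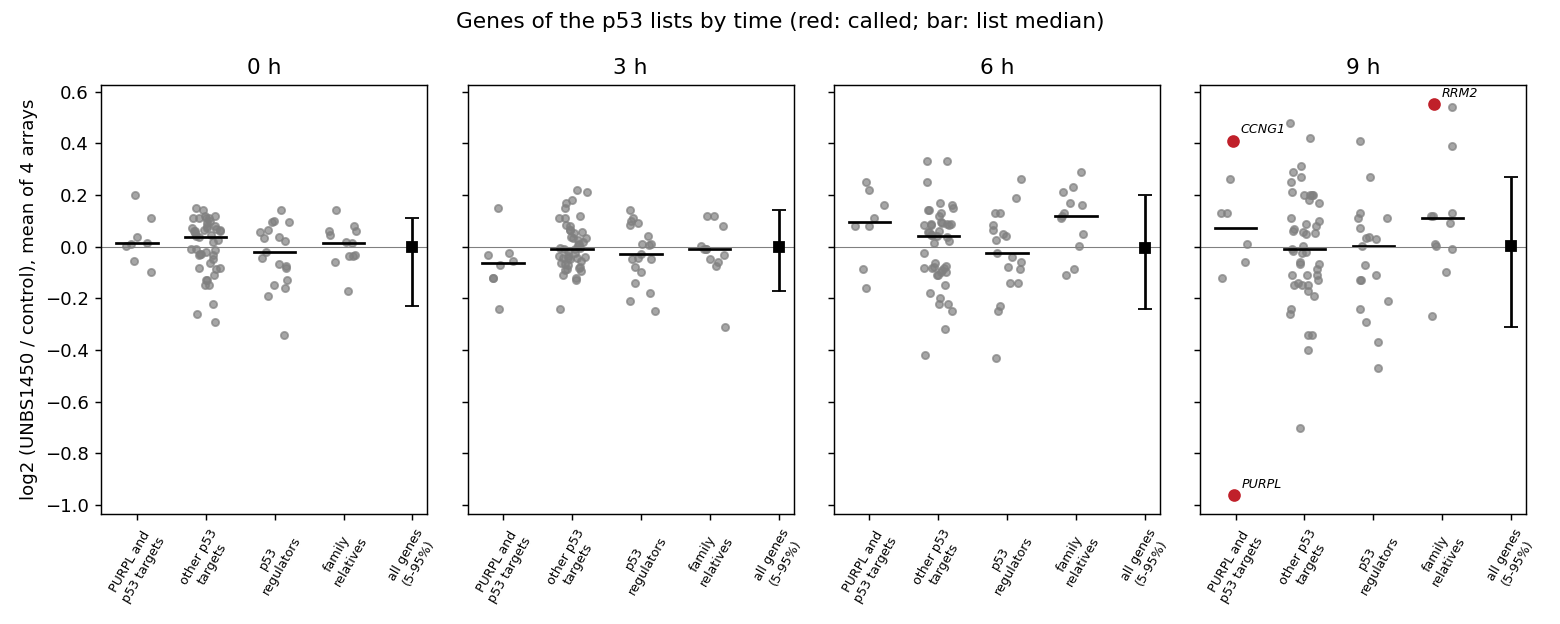
Mean log2 ratio of UNBS1450 over control (vertical axis) of each gene in the group, the wider p53 targets, the p53 regulators and the family relatives at 0, 3, 6 and 9 h (panels), with a bar at each list's median, called genes in red, and the median with the 5th to 95th percentile of all genes at the right of each panel. Called genes appear at 9 h only, where PURPL stands at −0.96, CCNG1 at 0.41 and RRM2 at 0.55.

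The genes whose profile over the 16 arrays was most like that of PURPL, after the mean of each dye orientation was taken off, were CFAP70 (Pearson r of 0.92, Spearman rho of 0.8), LOC100505502 (0.91 and 0.64) and SSBP1 (0.9 and 0.75). They were picked as the highest of all genes, so the coefficients are a description, and the arrays share time points and cultures. Without the 2 arrays farthest from the median of PURPL the Pearson r was 0.71, 0.64 and 0.78. Of these only CFAP70 had a mean at 9 h near that of PURPL, at −0.79 with an adjusted p of 0.0825 in limma, whereas LOC100505502 had −0.21 and SSBP1 −0.14. The genes most like CCNG1 were XPR1, ZC3H11A and RAB14, each with a Pearson r of 0.97 and with Spearman rho of 0.96, 0.98 and 0.95. Without the 2 farthest arrays the Pearson r was 0.95, 0.95 and 0.94. Their means at 9 h were 0.24, 0.31 and 0.26, and none was called. Within the group CCNG1 was most like RRM2B, with a Pearson r of 0.71 and a Spearman rho of 0.58, and 0.54 without the 2 farthest arrays. PURPL and CCNG1 had a Pearson r of −0.43 and a Spearman rho of −0.43.

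Set between times in the same fit, no gene of the group passed with adjustment, and neither did any of the 17329 genes, a background of 0% in all 6 contrasts. With the same fold and an unadjusted p under 0.05, PURPL passed for 9 h minus 0 h, where 3.79% of all genes did, and PURPL and CCNG1 passed for 9 h minus 3 h, where 4.72% did. PURPL also passed for 9 h minus 6 h, where 0.479% did. By its chosen spot none of the 8 genes passed for 3 h minus 0 h, 6 h minus 3 h or 6 h minus 0 h, where 2.41%, 2.54% and 0.19% of all genes did. Another spot of CDKN1A passed for 3, 6 and 9 h minus 0 h, at 0.46, 0.49 and 0.46. Its unadjusted p was 0.0394, 0.0299 and 0.0415 in limma. The 0 h mean of that spot holds 1 array at −1.28.

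The value of PURPL at 9 h ran from −1.16 to −0.67 over 14 other settings of the analysis, and it was called in 9 of them. The value of CCNG1 ran from 0.35 to 0.45 and was called in 5. Settings that only loosen the call rule are not counted. Neither was called when the 9 h arrays were fitted alone or when arrays were weighted by quality, settings under which 0 of 17329 genes were called.

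**Figure D4:**
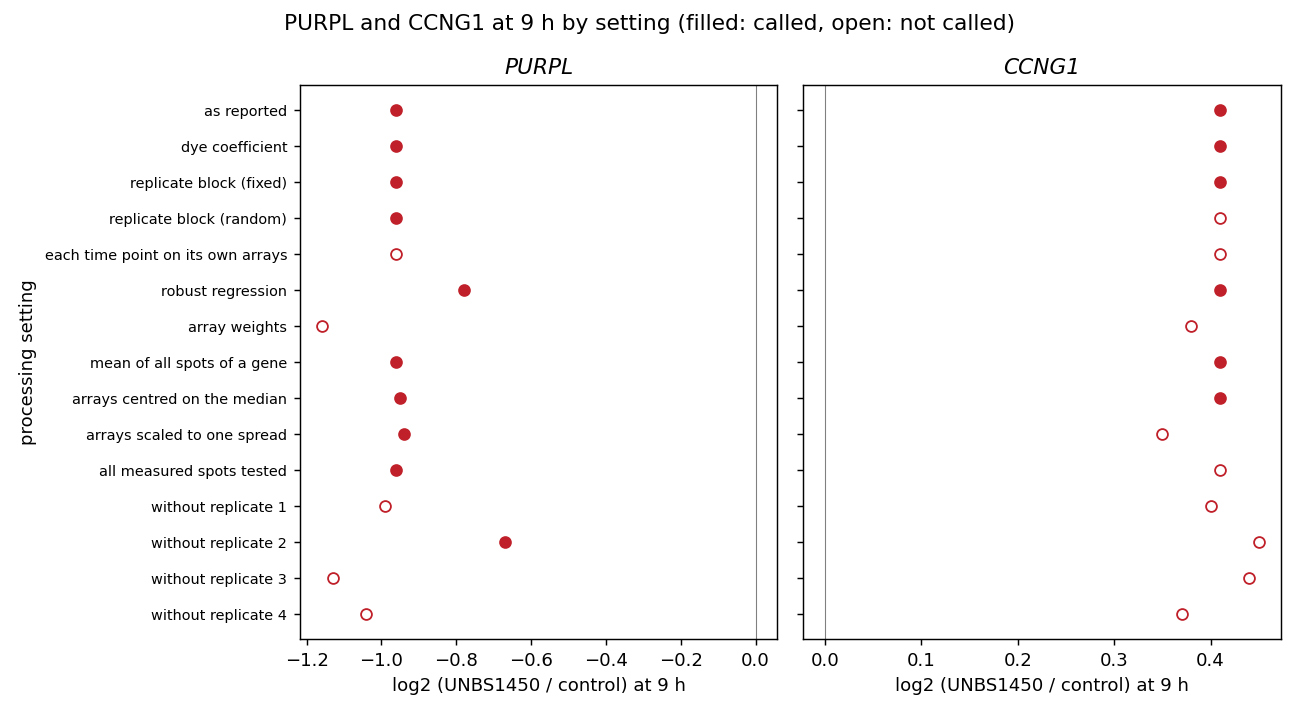
Log2 ratio of UNBS1450 over control at 9 h (horizontal axis, a separate scale in each panel) of PURPL (left) and CCNG1 (right). Rows are the fit used here (labelled as reported) and 14 other settings, filled where the gene was called and open where it was not. PURPL stays below 0 and CCNG1 above 0 in every row, and they are called in 9 and 5 of the 14 other settings.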

How the data were processed

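Two-colour arrays of UNBS1450-treated and control U937 cells were used as deposited. The deposited values are log2 ratios of Cy5 over Cy3 per spot. The authors extracted signals with GenePix Pro, corrected background by normexp, and normalized by loess within and Aquantile between arrays with limma. Array medians as deposited ran from −0.00711 to 0.00328. The table holds 45220 spots, 4657 of them empty and 40563 filled on every one of the 16 arrays. Of the measured spots, 28970 carry 1 gene symbol, 86 several, and 11507 are not listed in the annotation used here. Spot weights and intensities were not used here. Every spot therefore counted alike, and faint spots were not told from bright ones.

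Ratios of replicates 3 and 4 were reversed in sign. A limma model (3.58.1, R 4.3.3) with a coefficient per time took in all 16 arrays through lmFit and eBayes (prior degrees of freedom 3.29, residual 12), and p-values were adjusted by Benjamini-Hochberg over 28970 spots per time. The spot with the highest F over 3, 6 and 9 h stands for its gene. SDs are over 4 arrays and intervals come from the fit. With 4 arrays per time the precision is limited by their number.

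The genes and lists were chosen with earlier results of these data known. Named genes are all of the group, up to 6 called or the 4 of smallest p at 9 h in each list, and the 3 genes most like PURPL and CCNG1. SESN1, SCO2, PLK2 and PPM1D were named after their values were seen. Alternatives covered dye, replicate block, robust and weighted fits, scaling, thresholds, spots and replicates left out. Random blocks used statmod 1.5.0, and promoters and figures Python 3.11.15 with pandas 2.3.3, numpy 2.4.6 and matplotlib 3.10.9.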

Additional observations from a re-analysis of the deposited data

Results flagged for a closer look

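Within the 27 spots of the group, 6 of 108 sets of 4 arrays held a replicate far from the others by Dixon's 95% criterion, and chance gives about 1 in 20. One MDM2 spot had −1.82 in replicate 3 at 9 h, with the others between −0.12 and 0.21. One CDKN1A spot had −1.28 in replicate 3 at 0 h, with the others between −0.15 and −0.036, and the same spot had −0.031 in replicate 4 at 3 h, with the others between 0.095 and 0.098. Further CDKN1A spots at 0 h had 0.23 in replicate 3 (others −0.16 to −0.12), −0.13 in replicate 4 (others 0.0062 to 0.01) and −0.18 in replicate 4 (others −0.056 to −0.033). None of these was the spot that stands for its gene, and 3 of the 6 came from replicate 3 and 3 from replicate 4.

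CDKN1A had all arrays above 0 at 3 h and all below 0 at 0 h in its chosen spot. The difference of 3 h minus 0 h was 0.25, and by limma its adjusted p was 0.655.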

How the results depend on the processing

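No value of the group reversed its sign while called, and at 0, 3 and 6 h its count of called genes stayed at 0 under every setting. Of the 2 genes called at 9 h, 1 (PURPL) remained with the replicate number as a random block, with arrays scaled to one spread and with all measured spots tested. These settings called 0.756%, 0.444% and 0.375% of all genes. With the 9 h arrays fitted alone or with array weights 0 remained, where 0% of all genes were called. Leaving out 1 replicate left 0 to 1, with PURPL called only without replicate 2. Without replicates 1, 2, 3 and 4 in turn, 0%, 0.0173%, 0% and 0.352% of all genes were called. Calls over all genes were 2.95% with a dye coefficient, 1.81% with robust regression, 1.23% with no fold minimum and 4.93% without adjustment. In the fit used for the values given here they were 0.75%. The family relatives had 1 called gene, against 2 with a dye coefficient or robust regression, 3 without adjustment, 0 with the 9 h arrays alone or array weights, and 0 to 1 with a replicate left out, the 1 being CCNG2 without replicate 4 by another spot of the gene (0.51). The wider targets had 0, against 1 with a dye coefficient (PLK2), 1 with robust regression (SCO2), 2 with no fold minimum and 4 without adjustment. The regulators had 0, against 2 without adjustment. For 9 h minus 0 h the group had 0, against 1 with robust regression or without adjustment, PURPL each time. The cause of these moves was not tested. With the replicate number as a fixed block, which also holds the dye, both calls of the group stayed (adjusted p of 0.00849 for PURPL and 0.019 for CCNG1 in limma), and the wider targets had 5, the regulators 1 and the relatives 3, where 4.03% of all genes were called. Deviations from the time mean correlated at 0.061 to 0.66 (median 0.32) between arrays of the same number. Between other numbers of the same dye they correlated at −0.098 to 0.67 (median 0.23). Taken from the mean of time and dye, arrays of the same number correlated at −0.36 to 0.5 (median 0.085). The ranges overlapped, and the fit used here did not take the numbers as pairs. The random block had a consensus correlation of 0.253, and with it CCNG1 was not called (adjusted p of 0.0567 in limma). The MDM2 value at 9 h was −0.00046 as the mean of all its spots. Precision is limited by 4 arrays per time, and ratios without intensities do not show which spots were faint.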
